A study of Homo sapiens with 4 samples.

Results

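The contacts of ribosomal RNA gene clusters (rDNA) with chromosome 3 were examined in K562 cells, a human cell line established from an erythroleukemia. The contact regions were those with a midpoint on chromosome 3 at least 500 kb from both chromosome ends of the hg38 build. There were 8232 such regions among 197703 regions in all 4 libraries. The chromosome was chosen by its share of contact regions, which was higher after hemin than before it, so this difference and every other difference between hemin and untreated cells along the chromosome is given as a description. Counts of bins and genes called by a fit over the whole genome are printed on the same terms, beside the share called genome-wide, and support nothing about the chromosome.

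The 4C-rDNA assay cut cross-linked chromatin with EcoRI, ligated the ends, and amplified the partners of a viewpoint in the rDNA. There were 2 libraries of untreated K562 and 2 of K562 after 108 h in 50 µM hemin, an iron porphyrin that induces erythroid differentiation of this line. Both groups were the same cell line with no other treatment given. The authors call the replicates biological, and the labels do not say whether those of a group were separate cultures. The libraries held 47042 to 50751 regions and 19548906 to 34000240 reads, of which 214547 to 257452 lay in the chromosome 3 regions, and the hemin libraries were the shallower.

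The rDNA repeats lie on the short arms of the 5 acrocentric chromosomes, form the nucleolus, and are known to contact many sites on other chromosomes, often in inactive chromatin near the nucleolus. The centromere of chromosome 3 consists of alpha satellite, short units repeated in tandem that differ little from each other and many of which carry the box bound by the centromere protein CENP-B. In hg38 the alpha satellite arrays are computed models, so a place inside them is a copy chosen by the aligner and not a position that the experiment could resolve. A contact region in the deposited files is a stretch of the genome covered by aligned reads, and 1 repeated fragment can give many regions when its reads are spread over its copies.

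The regions were divided into 3 parts. The centromere bins were the 4 bins of 1 Mb between 90 and 94 Mb that held at least 50 CENP-B box cores (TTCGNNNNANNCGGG, both strands); they held 103 to 2295 cores each and every other bin of the chromosome at most 2. This limit was set after the data had been seen. The p and q arms were split at 92678769, the middle of the longest stretch without an annotated gene (chr3:91513776-93843763). The sequences that carried most of the centromere regions are shown first, since the main result turns on them. Regions were grouped by their central 30 bases. The sequence printed for each group is its most frequent one, read from hg38 on the forward strand, with the EcoRI site (GAATTC) and the CENP-B box core in capitals.

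Group 1, chr3:91558107-91558183: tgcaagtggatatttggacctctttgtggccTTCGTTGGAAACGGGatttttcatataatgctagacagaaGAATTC

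Group 2, chr3:91557874-91557936: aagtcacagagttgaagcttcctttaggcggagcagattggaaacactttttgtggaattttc

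Group 5, chr3:91559538-91559614: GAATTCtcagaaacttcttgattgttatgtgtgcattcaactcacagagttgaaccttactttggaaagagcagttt

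Group 6, chr3:91646381-91646433: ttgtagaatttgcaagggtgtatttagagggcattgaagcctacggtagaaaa

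Group 7, chr3:91607955-91608031: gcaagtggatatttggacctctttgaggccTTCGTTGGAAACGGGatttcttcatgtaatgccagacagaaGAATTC

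The group 1 sequence ended at an EcoRI site and carried a CENP-B box core, and its central 30 bases occurred 667 times in hg38, every time on chromosome 3. The group 2 sequence lay 30 bases from the nearest EcoRI site, and its central 30 bases occurred 687 times, again on chromosome 3 alone. Groups 3 and 4, which are not printed, hold the sequences of groups 1 and 2 with 2 and 1 further bases at an end. Group 5 began at an EcoRI site and had 703 copies, 95.6% of them on chromosome 3. The sequence of group 6 had 610 copies, all on chromosome 3, and that of group 7 had 20617 copies, 10.1% of them on chromosome 3.

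Chromosome 3 held 1679 and 1680 regions before hemin and 2457 and 2416 after it. The share of the library's regions was 3.33% ± 0.0261 (SD, n = 2) in untreated cells and 5.04% ± 0.255 (SD, n = 2) after hemin. The groups did not overlap, which the choice of chromosome fixed. Of the regions nearest to the limit at the chromosome ends, the outermost members lay 529933 to 575225 bases from an end with 2 to 7 reads, and the nearest regions left out lay 118645 to 458630 bases from an end with 1 to 2 reads.

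Most of the added regions lay at the centromere. The centromere bins held 267 and 277 regions before hemin and 815 and 660 after it. Their share of all regions of a library was 0.539% ± 0.0180 (SD, n = 2) in untreated cells and 1.53% ± 0.286 after hemin, a ratio of 2.84. These 4 of 199 bins thus carried 57.8% of the difference in the share of chromosome 3. Within them 3 bins were higher in both hemin libraries and the first, from 90 to 91 Mb and holding the fewest CENP-B box cores, was lower, with 25 and 24 regions before hemin and 6 and 10 after.

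**Figure D1:**
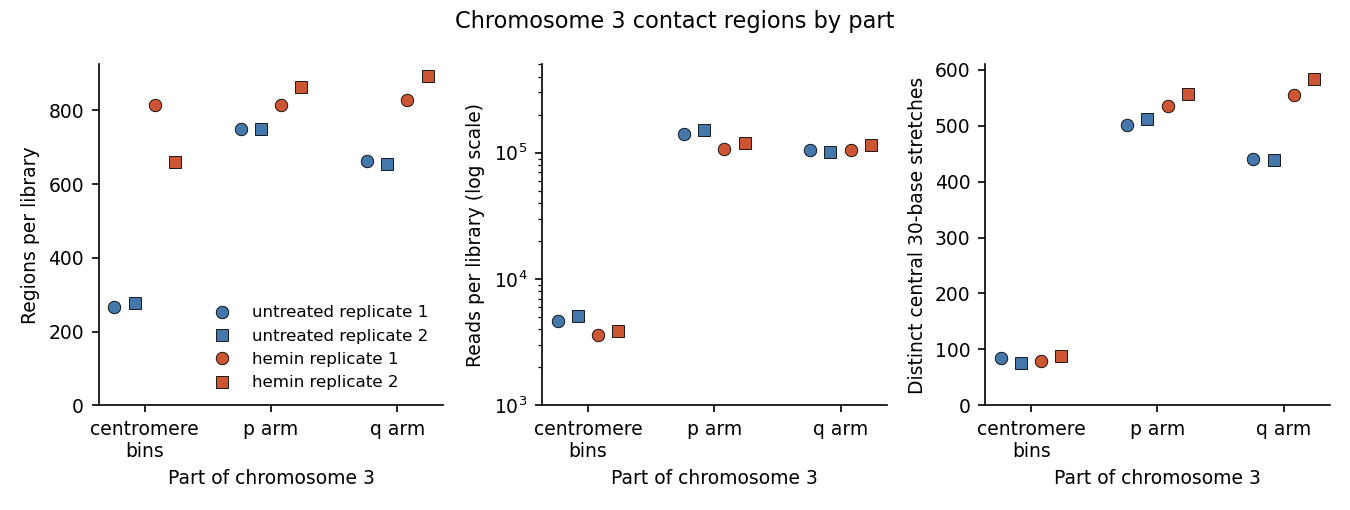
Regions, reads (log scale) and distinct central 30-base stretches of chromosome 3 in the centromere bins, the p arm and the q arm, with 1 point for each of the 4 libraries. Centromere regions are 267 and 277 before hemin and 815 and 660 after it, while distinct stretches there are 76 to 88 in all 4 libraries.

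The reads did not follow the regions, and the sequences did so only in part. The centromere bins, which also reach into unique sequence with the gene PROS1, held 4654 and 5105 reads before hemin and 3625 and 3885 after it. Both hemin libraries, which were the shallower, were thus lower in raw reads while higher in regions. A single fragment in PROS1, outside the repeats, held 1097 and 1151 of the untreated reads, and PROS1 held 74 and 85 reads after hemin. With that fragment included, reads per region went from 17.4 and 18.4 to 4.45 and 5.89. As a share of the reads outside the acrocentric chromosomes, the centromere bins held 0.0549% ± 0.00117 (SD, n = 2) before and 0.0663% ± 0.000488 after hemin. The distinct central 30-base stretches numbered 84 and 76 before hemin and 80 and 88 after it, and the groups overlapped. A like number of central stretches thus lay at more places, with 2.51 and 2.87 regions per stretch before hemin and 9.39 and 6.44 after. Regions under 30 bases have no such stretch. The distinct full sequences of all centromere regions numbered 152 and 156 before hemin and 168 and 201 after, and did not overlap.

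A pair of repeated sequences held many of these places, more than all others together in the first hemin library but not in the second. Groups 1 and 3 together, which are the same sequence, gave 2 and 6 regions before hemin and 309 and 201 after it. Groups 2 and 4 together gave 1 and 0 regions before hemin and 193 and 64 after. Both sequences together made 61.6% and 40.2% of the centromere regions of the hemin libraries, from 1499 and 584 reads. In the untreated libraries they made 1.12% and 2.17%, from 3 and 9 reads.

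Without these sequences the centromere bins held 264 and 271 regions in untreated cells and 313 and 395 after hemin, and the share of chromosome 3 was 3.32% before and 4.24% after. The pair thus held 46.1% of the difference in the share of the whole chromosome. Both sequences were chosen after their counts had been seen.

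**Figure D2:**
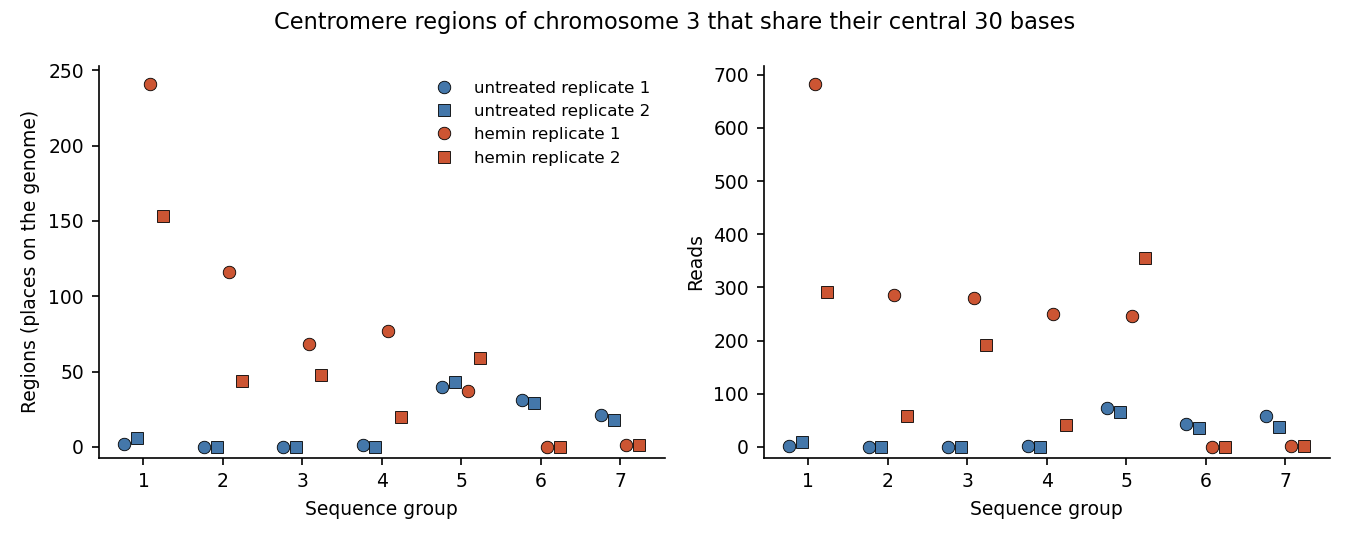
Regions (left) and reads (right) in the centromere bins for the 7 sequence groups with the most regions in hemin (groups 1 to 5) or untreated libraries (groups 5 to 7), with 1 point per library. Groups 1 to 4 have at most 6 regions in an untreated library and 20 to 241 in a hemin library, and group 6 has 31 and 29 regions in untreated libraries and 0 in hemin libraries.

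The other printed groups are a description, since groups 6 and 7 were chosen for their untreated counts. Group 5 had 40 and 43 regions before and 37 and 59 after hemin, and its groups of libraries overlapped. Group 6 had 31 and 29 regions in the untreated libraries, from 43 and 35 reads, and none in the hemin libraries, where a count of 0 allows up to 3 reads. Group 7, which ends at an EcoRI site and carries the CENP-B box core like group 1, went from 21 and 18 regions to 1 and 1. Of 249 central stretches found in any library, 29 occurred in both hemin and no untreated library, 28 in both untreated and no hemin library, and 4 in all 4 libraries. No such counts of other centromeres are given here, so nothing is read from these.

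The centromere regions also differed in kind, but the pair of sequences chosen for their counts enters these shares. A CENP-B box core lay in 15.4% and 15.5% of them before hemin and in 40.7% and 34.1% after it. No arm region of any library held it. The central stretch of groups 1 and 3 holds the core. These groups gave 2 and 6 of the 41 and 43 centromere regions with the core before hemin. After it they gave 309 and 201 of 332 and 225. Centromere regions with the core outside these groups were thus fewer in both hemin libraries, so the higher share came from these groups. An EcoRI site lay within 100 bases of 55.1% (95% Wilson interval 49.1 to 60.9) and 57.8% (51.9 to 63.4) before hemin and of 91.3% (89.2 to 93.0) and 85.9% (83.0 to 88.4) after. Both sequences of the pair lay within 100 bases of an EcoRI site, so they enter this difference too. The EcoRI share without them is not given here. Regions of a single read made 54.7% and 61.0% of the centromere regions before and 26.7% and 54.2% after hemin. The bins held 901 to 2999 EcoRI sites each, against a median of 287 and a highest value of 346 in the other bins of the chromosome. The intervals cover counting error only, since reads were not reduced to separate molecules.

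The central stretch occurred once in the genome for 16 and 11 of the centromere regions of the untreated libraries and for 15 and 13 of those of the hemin libraries. The numbers of regions with 1 possible place in hg38 thus overlapped. Regions in lower case throughout, the mark of masked repeats in the deposited sequences, made 99.3% to 99.5% of the centromere regions of each library. With regions of at least 10 reads the direction turned in 2 of the 3 higher bins, those at 91 and 92 Mb, with log2 fold changes of -0.48 and -0.67. The part played by the choice among copies during alignment was not tested.

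By the same limit on CENP-B box cores, the share of the centromere bins was higher in both hemin libraries on 3 of 23 chromosomes, lower on 17 and overlapping on 3, with a median ratio of 0.593. Chromosome 3, at 2.84, stood beside chromosome 6, at 3.15, and the other was chromosome 8, at 1.04. On chromosome 6 the centromere regions went from 338 and 328 to 991 and 1017. There the distinct central stretches went from 48 and 33 to 127 and 138, and the reads from 3824 and 4260 to 18307 and 19332. At the centromere of chromosome 3 the ratios of distinct stretches and of raw reads, not scaled for depth, were 1.05 and 0.770. The ratio of its share of reads outside the acrocentric chromosomes was 1.21. The difference between both centromeres was not tested.

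**Figure D3:**
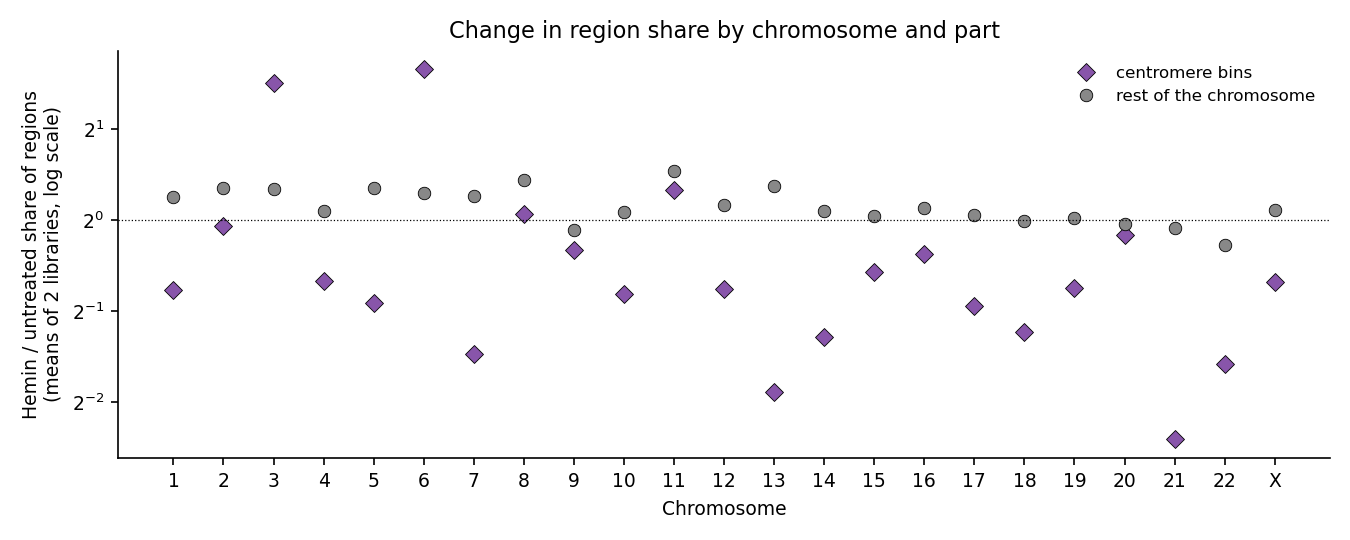
Ratio of the hemin to the untreated share of regions (means of 2 libraries, log scale) for the centromere bins and for the rest of 23 chromosomes. The centromere bins of chromosomes 3 and 6 lie at 2.84 and 3.15, against a median of 0.593, while the rest of chromosome 3 lies at 1.26.

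In the deposited group files, from which reads made wholly of repeats had been removed, the centromere regions remained. The untreated file held 501 regions on chromosome 3 among 20608 (2.43%), of which 83 lay in the centromere bins. The hemin file held 947 among 18874 (5.02%), of which 398 did. The arms held 418 and 549 regions. Each group had 1 such file, with no replicates.

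The arms showed a smaller difference. They held 1412 and 1403 regions before hemin and 1642 and 1756 after it. The share was 2.79% ± 0.00809 (SD, n = 2) before and 3.51% ± 0.0307 after, a ratio of 1.26. The p arm went from 749 and 748 regions to 814 and 863, a ratio of shares of 1.17. The q arm went from 663 and 655 to 828 and 893, a ratio of 1.36, and its share of reads outside the acrocentric chromosomes from 1.16% ± 0.0783 to 1.95% ± 0.0659. Outside the centromere bins the share was higher in both hemin libraries on 18 of 23 chromosomes, and chromosome 3 ranked 6 by the ratio.

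Copies could be counted only for regions of at least 30 bases. These were 1026 and 1025 of the 1412 and 1403 arm regions before hemin. After it they were 1125 and 1181 of 1642 and 1756. The shorter regions, which were not classed, were also more numerous after hemin. Among the classed arm regions it was those of unique sequence that were more numerous. Regions whose central 30 bases occurred once numbered 661 and 646 before hemin and 857 and 914 after, while those with more copies numbered 365 and 379 before and 268 and 267 after. The regions of unique sequence were also a larger part of the regions elsewhere in the genome, 51.6% in each untreated library and 63.9% and 63.3% after hemin, so the same direction was found there. Regions with over 100 reads numbered 381 and 383 before and 447 and 463 after. An EcoRI site lay within 100 bases of 46.0% and 45.2% of arm regions before and of 50.3% and 50.4% after.

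The places of the arm regions relative to genes differed little between libraries. Introns held 62.8% and 62.6% of the arm regions before hemin and 63.1% and 61.3% after, and exons held 3.59% to 4.13%. Protein-coding genes were met by 51.8% and 50.5% before and by 50.1% and 48.1% after. Of the bases of the arms, 50.9% lay in a protein-coding gene and 4.68% in an exon.

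Gained bins lay along both arms, some alone and some in clusters of adjacent bins. Of the 199 bins, 100 were higher in both hemin libraries and 34 lower, beside 46.0% and 24.3% of all bins of the genome that held a region. A bin was called gained when it was higher in both hemin libraries, by at least 2 times in the mean share and with at least 5 regions in each. There were 47 gained bins on chromosome 3 and 11 lost ones, beside 18.8% and 6.58% of all bins. Nothing is read from these counts, since the contrast was that of the rule.

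Of the 44 gained bins of the arms, 23 stood alone and 21 adjoined another gained bin. The q arm held 28 of its 105 bins as gained and the p arm 16 of 90. The changes of adjacent bins had a Pearson correlation of -0.13 on the p arm (89 pairs) and 0.01 on the q arm (104 pairs). In windows of 10 Mb outside the centromere bins, 16 of 20 windows were higher in both hemin libraries and 2 were lower. The latter were 70 to 80 Mb, with a ratio of 0.867, and 110 to 120 Mb, with 0.847. The highest ratio, 2.12, was that of the bins from 94 to 100 Mb, next to the centromere, with 38 and 33 regions before and 70 and 74 after. To reach 80% of the summed gains of the arms took 67 bins, of 127 with any gain.

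The bins of the arms were more alike within a group of cells than between groups. Over 195 bins the Spearman correlation of region counts was 0.73 within each group and 0.20 to 0.26 between groups, where the bins share their length and EcoRI sites. The gain in replicates 1 and the gain in replicates 2 correlated with a Pearson r of 0.69 over these bins. The gain had a Pearson r of 0.01 with the number of EcoRI sites of a bin, 0.01 with its GC content and -0.07 with its number of protein-coding genes.

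**Figure D4:**
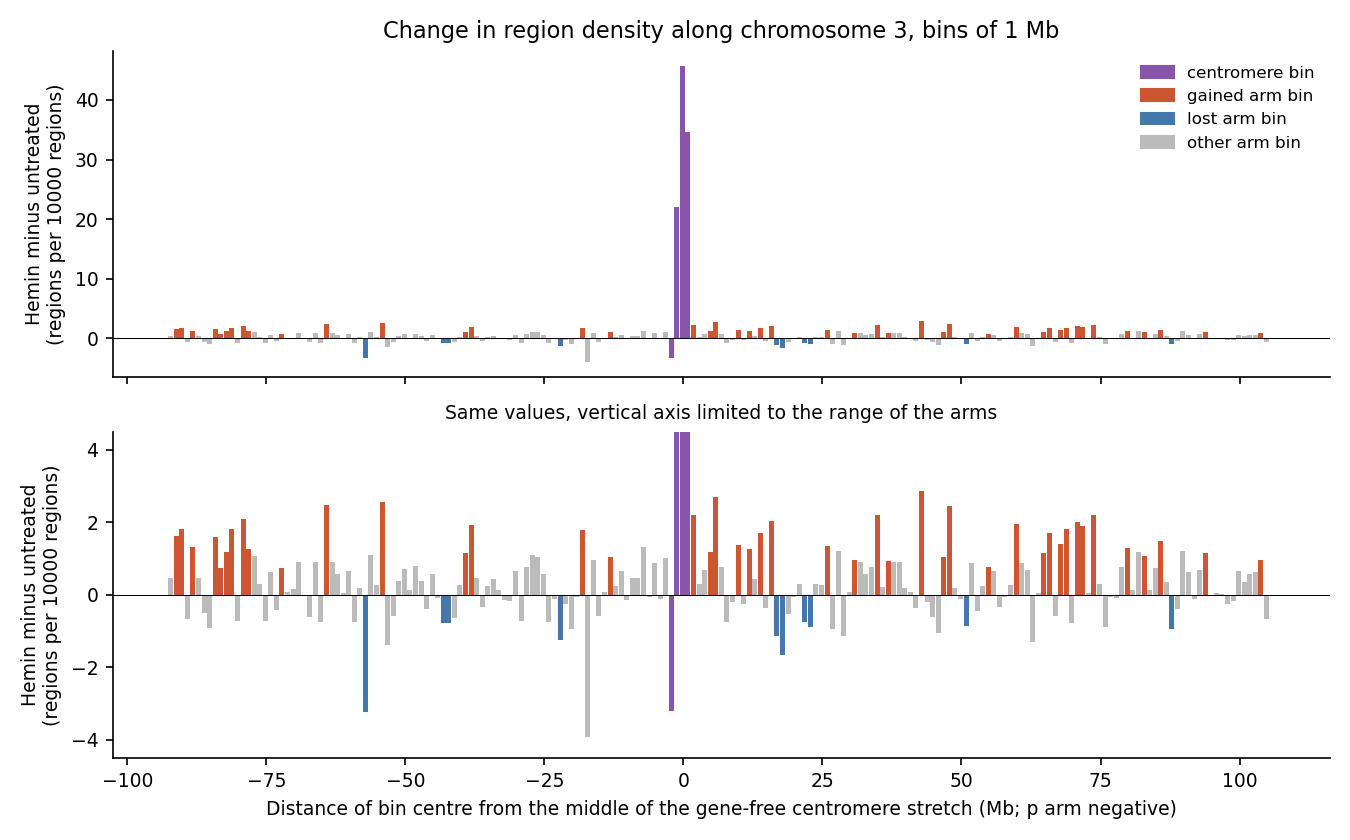
Hemin minus untreated regions per 10000 regions of a library (means of 2 libraries) in bins of 1 Mb, against the distance in Mb from the middle of the gene-free centromere stretch; the lower panel has a shorter vertical axis. The bins at 92 and 93 Mb reach 45.8 and 34.6 and no arm bin passes 2.87, while gained and lost bins lie along both arms.

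Single fragments were compared in the same way. Of the arm regions with over 100 reads, 94.8% to 97.1% met a region of the other replicate, and at least 98.4% of these had a read number within 2 times of the median ratio. In a library of the other group 5.15% to 9.97% met a region. The reads of shared regions differed between replicates by more than sampling noise (chi-square per degree of freedom of 20.6 in untreated and 10.5 in hemin cells), so the replicates were kept as separate libraries. Over all chromosome 3 regions of the first hemin library, 1611 recurred in the second, and 1481 of these met no untreated region; of the first untreated library, 1089 recurred and 935 met no hemin region. In the 4 libraries 84 to 90 regions met all others. No such shares of the other chromosomes are given here, so none of these counts and shares is read as particular to chromosome 3.

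The edgeR quasi-likelihood test on region counts of 2884 bins called 15 bins of chromosome 3 higher and 4 lower after hemin, of 197 tested, beside 7.25% and 8.95% of all bins. These are the region counts and the contrast by which the chromosome was chosen, so the balance of higher and lower bins was partly fixed by that choice. Without either hemin library it called none, with 18 to 25 higher and 10 to 12 lower at an unadjusted p under 0.05, and with both hemin libraries but without an untreated library 9 higher. With the change of each chromosome divided out, the balance turned, with 8 higher and 16 lower, beside 11.6% and 6.31% of all bins. Of the 8 bins higher than their chromosome, 3 were centromere bins, and 15 of the 16 lower ones lay on the arms. The total divided out includes the centromere bins, which carried 57.8% of the difference in share, so it sets arm bins lower. The median log2 fold changes of the p and q arms went from 0.05 and 0.28 to -0.32 and -0.09. The place of the lower bins was thus partly fixed, and nothing is read from it.

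Reads gave more calls than regions. The same test on reads called 87 bins of chromosome 3 higher and 66 lower, of 198, beside 39.7% and 41.1% of 2927 bins. With library totals in place of TMM scaling the counts were 105 and 51. The centromere bins were 2 higher and 1 lower by reads.

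Outside the centromere the gains per bin were modest. The bin from 135 to 136 Mb had 12 and 8 regions before hemin and 21 and 26 after. That from 98 to 99 Mb had 0 and 2 before and 16 and 12 after, and its reads went from 0 and 6 to 374 and 432. The bin from 28 to 29 Mb had 1 and 2 before and 12 and 15 after. In each of these the groups did not overlap. The other 4 arm bins among the 10 with the largest gain, at 38, 127, 140 and 166 Mb, held 3 to 8 regions before and 14 to 22 after.

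Bins with losses were found on both arms. The bin from 75 to 76 Mb had 55 and 62 regions and 38288 and 41184 reads before hemin, more reads than any other bin named here, and 37 and 37 regions with 13076 and 14794 reads after. The bin from 35 to 36 Mb went from 18 and 25 regions to 6 and 4. On the q arm the bin from 110 to 111 Mb went from 11 and 12 to 1 and 5.

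The gained bins formed 10 clusters of at least 2 adjacent bins. Regions and reads of genes in clusters are counted inside the cluster and for every gene that a region, widened by 2.5 kb, met, so that a region can count for more than 1 gene. The cluster with the largest gain, from 91 to 95 Mb, was made of 3 centromere bins and the next bin of the q arm, and went from 246 and 254 regions to 823 and 662. The genes PROS1 and DHFR2 lie next to the gene-free stretch. PROS1, which encodes the anticoagulant protein S, had a single region of 1097 and 1151 reads before hemin, and 2 and 3 regions with 74 and 85 reads after. PROS1 (chr3:93873051-93980003) thus had more regions and fewer reads, and its untreated fragment was the region with the most reads of the centromere bins. DHFR2, a dihydrofolate reductase, had no region before and 1 and 1 after, with 531 and 526 reads.

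The cluster from 8 to 12 Mb on the p arm went from 19 and 17 regions to 44 and 42. ATG7, an enzyme of autophagy, had 2 and 0 regions with 10 and 0 reads before hemin and 6 and 5 regions with 1023 and 941 reads after. ATP2B2, a calcium pump of the plasma membrane, went from 2 and 2 regions to 9 and 6, while its reads went from 1559 and 1656 to 561 and 568. With regions that met this gene alone, its hemin libraries held 8 and 5 regions with 214 and 181 reads. SRGAP3, a GTPase-activating protein, went from 37 and 11 reads to 240 and 203.

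The cluster from 97 to 99 Mb went from 4 and 7 regions to 27 and 21. Its part of EPHA6, an ephrin receptor, went from 4 and 5 regions to 8 and 5. Raw reads of this part, not scaled for depth, went from 487 and 441 to 335 and 365. Over the whole gene EPHA6 had 617 and 677 reads after hemin and was called higher, with a log2 fold change of 0.96. DCBLD2, a membrane receptor, and ST3GAL6, a sialyltransferase, had no region before and 2 to 4 after; they overlap, and share most of their reads. The cluster from 163 to 165 Mb went from 16 and 10 regions to 25 and 38, and no protein-coding gene there held a region found in both hemin and no untreated library.

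In the cluster from 139 to 141 Mb the regions went from 9 and 10 to 24 and 28. CLSTN2, a calsyntenin of synapses, went from 3 and 4 regions to 9 and 9, all 9 of which in the first hemin library recurred and met no untreated region. MRPS22, of the mitochondrial ribosome, had no region before hemin and 2 and 4 after, with 299 and 314 reads. The cluster from 1 to 3 Mb went from 10 and 15 regions to 30 and 27. There CNTN4, a neuronal adhesion protein, went from 4 and 5 regions to 13 and 13, but its reads in the cluster, 888 and 890 before, were 540 in the first and 5063 in the second hemin library. Over the whole gene the log2 fold change in reads was 2.08, did not pass the test, and was -0.29 without the second hemin library. CNTN6, of the same family, went from 0 and 12 reads to 598 and 563.

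A few fragments carried most reads of their bins. Fragments among those with the most reads in both libraries of a group and none in the other are printed here, and were chosen for that difference. The EcoRI site is in capitals in the first, and the other two hold none.

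Hemin, chr3:99523356-99523529: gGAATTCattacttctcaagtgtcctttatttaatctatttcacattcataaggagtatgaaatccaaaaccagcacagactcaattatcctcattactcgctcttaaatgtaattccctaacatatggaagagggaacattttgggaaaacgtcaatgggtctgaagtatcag

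Untreated, chr3:171453015-171453063: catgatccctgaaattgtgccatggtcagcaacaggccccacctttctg

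Untreated, chr3:166959648-166959712: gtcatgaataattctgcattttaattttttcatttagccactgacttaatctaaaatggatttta

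The fragment at 99.5 Mb, with 2726 and 2899 reads, met an exon of an unnamed long non-coding RNA gene, 115 kb from COL8A1; untreated cells had 4 regions with 71 reads within 50 kb of it.

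A further pair of hemin fragments had more than 1 copy. That at chr3:15697511-15697619, in introns of ANKRD28 and BTD, had 5835 and 6230 reads and 2 copies of its central stretch. That at chr3:129329106-129329387, 12.8 kb from the histone H1 gene H1-10, had 5388 and 5656 reads and 6 copies. It made 97.8% and 97.7% of the reads of its bin, which had 1 and 0 reads before hemin.

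Among the untreated fragments, that at 171 Mb lay in an intron of TNIK, a kinase of the Wnt pathway, and had 2625 and 2974 reads, 98.2% and 98.6% of its bin. The fragment at 167 Mb lay between genes, 280 kb from ZBBX, with 2244 and 2493 reads, and 2 hemin regions with 1332 reads lay within 50 kb of it. Its bin was among the 10 with the largest gain in regions, from 4 and 4 to 15 and 14, while its reads went from 3430 and 3800 to 2115 and 2534. The last, chr3:63980278-63980327, met an exon of ATXN7, a subunit of the SAGA complex, and had 2233 and 2461 reads. No hemin region lay within 50 kb of the fragments in TNIK and ATXN7. In each case the replicates were close to each other in reads. That both replicates had the fragment and the other group had no region there was fixed by the choice of these fragments.

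For the comparison over all genes, reads were given to a gene when a region, widened by 2.5 kb, met exactly 1 gene. Of the 426 genes of chromosome 3 tested, edgeR called 173 higher and 140 lower after hemin, beside 37.7% and 32.8% of 8752 genes. With the replicate number as a block it called 9 and 9. Protein-coding genes were called equally often in both directions, 108 and 108 of 287, and the other types 65 higher and 32 lower of 139. No read in any untreated library was found for 143 of the tested genes, and none in any hemin library for 101. Of the 117 genes with a read in every library, 39 were higher and 47 lower. No genome-wide share of these classes of genes is given here, so nothing is read from their counts.

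Among genes with reads in every library and a mean of at least 100 normalized reads, the highest fold changes were those of CNTN3, ABI3BP, LINC00877, ALCAM and PRICKLE2. CNTN3 (chr3:74262568-74614659), a contactin of neuronal adhesion, had 4 and 1 reads before hemin and 735 and 750 after (log2 fold change 8.61 ± 0.61, SE). ABI3BP, a matrix protein, had 2 and 4 before and 734 and 740 after, in 1 and 1 regions before and 1 and 4 after. The non-coding LINC00877 went from 2 and 2 to 408 and 457, in 1 region of each library. ALCAM, a cell adhesion molecule of leukocytes, went from 4 and 3 to 370 and 403, and PRICKLE2, a planar polarity protein, from 14 and 8 to 806 and 734. For these 5 genes each untreated library held 1 to 14 reads.

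The lowest were STT3B, MAP4, THRB-AS1, PLCH1 and GRM7. STT3B (chr3:31532638-31637616), of the oligosaccharyltransferase, had 1395 and 1483 reads before hemin and 2 and 2 after (log2 fold change -8.93 ± 0.09, SE). MAP4, a microtubule-associated protein, went from 1423 and 1528 to 22 and 20. THRB-AS1, antisense to a thyroid hormone receptor gene, went from 968 and 987 to 17 and 11, in 1 and 1 regions before and 2 and 2 after. PLCH1, a phospholipase, had 476 and 478 before and 13 and 3 after, and GRM7, a glutamate receptor, 839 and 881 before and 54 and 29 after. For GRM7 the direction turned when reads were given to every gene a region met, with a log2 fold change of 0.048.

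**Figure D5:**
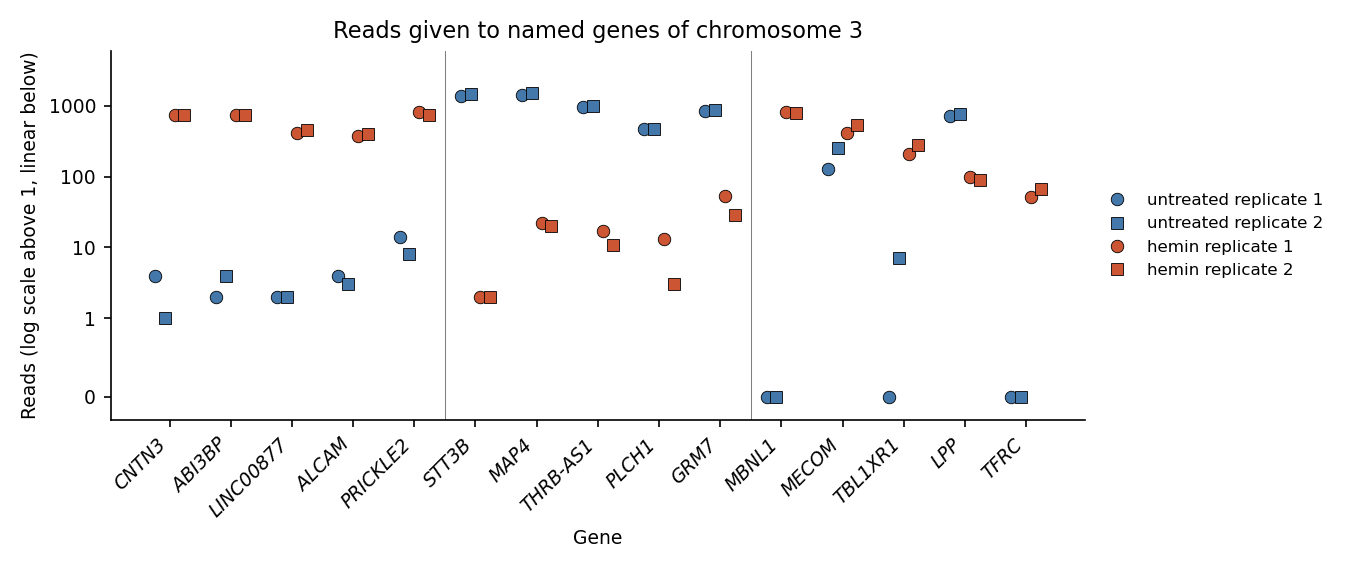
Reads given to the 5 genes with the highest fold change, the 5 with the lowest, and the 5 genes of the blood and iron list with reads, with 1 point per library (log scale above 1, linear from 0 to 1). Most replicates of a group lie close together. Those further apart include TBL1XR1 with 0 and 7, CNTN3 with 4 and 1 and MECOM with 130 and 251 untreated reads, and PLCH1 with 13 and 3 hemin reads.

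Of 20 genes of blood and iron metabolism, 15 received no read, among them GATA2, TF and ALAS1. The other 5 were tested, 4 called higher and 1 lower, beside 37.7% and 32.8% of all genes. MBNL1 (chr3:152243828-152465780), a splicing regulator, had 0 and 0 reads before hemin and 828 and 793 after. TFRC (chr3:196012511-196082153), the transferrin receptor that brings iron to erythroid cells, had 0 and 0 before and 52 and 66 after. TBL1XR1, of a corepressor complex, went from 0 and 7 to 208 and 278, and MECOM, a transcription factor of blood stem cells, from 130 and 251 to 416 and 528. LPP, a LIM protein of focal adhesions, went from 711 and 767 to 98 and 89. The median log2 fold change, with genes at 0 set to the bound that 3 reads allow, was 5.78 over these 5 genes. Over all genes tested the fitted median was 0.48, and over the chromosome 3 genes tested it was 1.47. MBNL1 and TFRC passed the filter on low reads through their hemin reads alone, so the count of 4 among 5 is read no further.

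All 20 long adhesion and neuronal genes received reads, and 6 were called higher and 6 lower, with a median log2 fold change of 0.81. The median of the chromosome 3 genes tested was 1.47, but 143 of these had no untreated read. Over the 117 with a read in every library, as most of the 20 had, it was -0.29. Beside 37.7% and 32.8% of all genes, neither count was above the background. ERC2, of the presynaptic zone, went from 674 and 665 reads to 1955 and 1986, and CADM2, an adhesion molecule, from 10 and 26 to 285 and 644. ROBO2, an axon guidance receptor, went from 5165 and 5515 to 1176 and 1243, and FGF12 from 1189 and 1259 to 55 and 110. The regions of ROBO2 numbered 9 and 13 before and 12 and 16 after, so its groups overlapped in regions. CACNA2D3, a calcium channel subunit, had 6 and 6 regions before and 15 and 15 after, with 11 that recurred and met no untreated region, and its reads, 261 and 304 before and 351 and 848 after, did not pass the test.

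Of the 12 tumour suppressor and chromatin genes of 3p, 6 were tested, with 2 called higher and 3 lower, beside 37.7% and 32.8% of all genes. Their median log2 fold change was -1.85, and that of the chromosome 3 genes tested was 1.47. With 6 genes nothing is read from these counts. RARB, a retinoic acid receptor, went from 301 and 300 reads to 1382 and 1402. CTNNB1, which encodes beta-catenin, had 126 and 113 before and 0 and 0 after. SETD2, a histone methyltransferase, went from 1547 and 1687 to 147 and 171. FHIT, a gene of a common fragile site, was called lower with a log2 fold change of -0.83 ± 0.10 (SE).

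Of 17 ribosome and nucleolus genes of the chromosome 1 received reads, NMD3, an export factor of the large ribosomal subunit, which had 0 and 0 reads before hemin and 125 and 115 after (median at the bound 6.80). Of 11 chemokine receptor genes 2 were tested (median at the bound 2.94). XCR1 went from 0 and 0 to 136 and 157, and CCR3 from 742 and 751 to 235 and 229. The lists were chosen with earlier results of these data known, so the counts are descriptions.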

How the data were processed

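Contact regions were taken from the deposited table of each library. The authors kept reads trimmed of 4C primer sequence (cutadapt 3.5), aligned them to hg38 (BWA 0.7.17-r1188) and made regions with in-house scripts, SAMtools 1.14 and bedtools 2.29.1, versions as in the submitters' processing notes. Neither a mapping-quality filter nor a step against PCR duplicates is named in the sources used here. The deposited count of a region is its number of aligned reads, mates counted singly, with no normalization. A further file per group, used once, holds the authors' signal (mean read number) of regions found in both replicates after reads made wholly of Dfam repeats had been removed. Columns without a sample or group numbered 0.

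Regions were counted by midpoint in bins of 1 Mb and in genes of GENCODE release 44 (widened by 2.5 kb, reads given only where exactly 1 gene was met). At least 99.95% of region sequences of each library were identical to hg38. The centromere-bin limit of 50 cores, the pair of repeated sequences and the alternatives named as added were chosen after seeing the data. Copies of the central 30 bases were counted on both strands of hg38. Hemin and untreated libraries were compared with the quasi-likelihood test of edgeR 4.0.16 (R 4.3.3; TMM, no covariate, at least 10 counts over the 4 libraries, Benjamini-Hochberg adjusted p under 0.05 over all features); DESeq2 1.42.0 was an alternative, since it gave many false calls on simulated counts. The fits were tested on simulated data. Alternatives were library totals, other filters, bin sizes and read minimums, the replicate block and leaving out each library. The authors call the replicates biological, but whether they were separate cultures is not stated. These p-values measure only the spread between the libraries. Python 3.11.15 and matplotlib 3.10.9 were used for the rest.

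The named genes were, in each of the 6 clusters with the largest gain, up to 3 protein-coding genes with the most regions found in both hemin and no untreated library; the 5 highest and 5 lowest fold changes; the 5 hemin and 3 untreated regions with the most reads in both libraries; the 10 bins with the largest gain and the 5 with the largest loss; and genes of 5 lists. Some items that this rule names are not reported here. The members and lists were chosen with earlier results of these data known. Depth limits single regions, since a count of 0 allows up to 3 reads.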

Additional observations from a re-analysis of the deposited data

How the results depend on the processing

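The difference in the share of regions on chromosome 3 (1.72 points) kept its direction in all 15 alternatives. It was 2.02 over regions outside the acrocentric chromosomes, 1.15 over reads there, 0.681 with at least 10 reads per region, 2.54 with an EcoRI site within 100 bases and 2.59 in the repeat-filtered files. Alternatives added after seeing the data gave 0.893 for central stretches that occur once, 0.750 with each stretch counted once, 0.546 without centromere bins and 0.866 without wholly masked regions. Leaving out a library gave 1.54 to 1.90. The gained bins, clusters and lost bins (47, 10 and 11) were 73, 21 and 27 at a ratio of 1.5, 19, 2 and 5 at 3, and 15, 3 and 3 with 2 Mb bins; 500 kb bins gave 17 clusters and 29 lost bins. Leaving out a library gave 47 to 56, 9 to 14 and 11 to 16. Hemin-specific regions of the first hemin library were 766 with at least 10 reads (1481 in all). The difference in the EcoRI share (14.7 points) was 2.36 at 0 bases and 8.87 within 500 bases.

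By region count (15 bins higher, 4 lower), DESeq2 called 3 and 2, library totals 29 higher, and 2 Mb bins or unique stretches 9 higher; 500 kb bins gave 14 lower and regions with at least 10 reads 7 lower. Leaving out a library gave 0 to 9 and 0 to 5, with 0 by edgeR without either hemin library (18 to 25 higher and 10 to 12 lower at an unadjusted p under 0.05). With the chromosome divided out (8 and 16), DESeq2 called 2 and 2 and a minimum of 40 regions left 3 and 5; leaving out a library gave 0 to 6 and 0 to 9, again with 0 by edgeR without either hemin library (7 to 11 higher and 21 to 25 lower at an unadjusted p under 0.05). Bins by read count moved by less than 1.5 times, 87 to 90 and 57 to 65 without a library. For genes (173 and 140), giving reads to every gene met gave 265 and 216, and leaving out a library 141 to 172 and 79 to 149. Library totals moved the median log2 fold change of all genes from 0.48 to 0.84 and of all bins by region count from -0.01 to 0.20.

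With the replicate number as a block (replicate block), genes called were 9 and 9, and bins by region count 16 and 5; the deviations of same-numbered libraries had a Pearson correlation of -0.03 over the arm bins, so the numbers do not pair the libraries. Single values that turned were the bins at 91 and 92 Mb with at least 10 reads per region (log2 fold change -0.48 and -0.67) and at 91 Mb with unique stretches (-0.93), the reads of the bin at 166 Mb (0.071) and ROBO1 (0.24) with library totals, LSAMP (0.90) and GRM7 (0.048) with reads given to every gene met, ZBTB20 without the first untreated library (3.46, range without a library -4.81 to 3.46), and CNTN4 (-0.29, range -0.29 to 2.93) and NAALADL2 (-1.15, range -1.15 to 1.65) without the second hemin library. The causes were not tested. Of the other single values, 582 kept direction and side of the threshold, 105 became weaker and 12 stronger.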
